A study of Danio rerio with 36 samples.

Results

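Bisphenol A (BPA) and its brominated derivative tetrabromobisphenol A (TBBPA) were compared at near-equal molar concentrations, 2.92 µM for TBBPA and 4.83 µM for BPA. Lower steps of the 10-fold dilution series form pairs of the same ratio, and this was the highest such pair. TBBPA 2.92 µM was set against the carrier control (CC) of the TBBPA plates and BPA 4.83 µM against the CC of the BPA plates. With 3 libraries in each group, the comparison covered 12 of the 36 libraries of the series. Libraries of the other concentrations entered the fits to estimate the spread and counted toward the mean used to select genes. Replicate 3 at BPA 4.83 µM lay apart from all other libraries, and replicates 1 and 2 therefore gave the BPA values, with replicate 3 shown beside them. Of the 25531 genes found in the tables of both chemicals, 17157 had a mean normalized count of at least 10 in each and were tested.

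Each library came from a pool of 20 zebrafish larvae of the AB/Tub strain and of normal appearance, exposed in wells from 72 to 120 hours post fertilization (hpf). The CC larvae were kept in a 0.5% carrier. This was dimethyl sulfoxide by the published methods, while the labels of the controls name the test chemical in its place. Both chemicals were dissolved in dimethyl sulfoxide, but its final level in the exposed wells is not given in the sources used here. The 3 replicates of a group came from different clutches. The 2 chemicals were run as separate series with their own controls, so that chemical and series cannot be told apart in any difference between them. The concentrations were also not matched in potency. TBBPA 2.92 µM was the EC20 of TBBPA, which the study took from earlier work, whereas BPA 4.83 µM lay 1 step of 10-fold dilution below the EC20 of BPA, 48.3 µM.

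BPA carries a phenol ring on either side of a central carbon and is used in polycarbonate plastics. In TBBPA, bromine atoms sit next to the hydroxyl groups of the same skeleton, and the compound is used as a flame retardant. BPA is known as a weak ligand of estrogen receptors. TBBPA is known to bind the nuclear receptor PPARγ and the thyroid hormone carrier transthyretin. A larva of this age has a working liver, lens and retina, red cells filled with embryonic globins, and innate immune cells, so that RNA from whole larvae reports on all of these tissues at once. In such pools, fewer cells of a type and less RNA per cell cannot be told apart.

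The 6 TBBPA libraries held from 7865327 to 9815406 reads on genes, and the 6 BPA libraries from 6990605 to 16520859. The BPA libraries varied more, with a median residual SD over genes of 0.230 on the log2 scale against 0.161 in the TBBPA series. The median standard error of a log2 change was 0.216 at BPA 4.83 µM, with 2 libraries, and 0.134 at TBBPA 2.92 µM, with 3. At the other BPA concentrations, with 3 libraries each, it was 0.189. Replicate 3 at BPA 4.83 µM differed by at least 2-fold from the mean of the BPA controls in 3730 genes, or 21.7% of those tested, of which 3237 were lower, whereas replicates 1 and 2 differed in 220 and 255. It scored 126 on the first principal component of the BPA libraries, which held 39.1% of their variance, against −23.0 and −12.8 for replicates 1 and 2. Of the BPA controls, replicate 2 stood apart from the others, at 16.5 against −23.3 and −22.6. Markers of 9 cell types were found in the larvae, with shares above the minimum that ran from 24 of 38 neutrophil and macrophage genes to 37 of 37 muscle genes.

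The exposures differed first in the number of genes that changed. TBBPA 2.92 µM changed 143 genes, 0.833% of those tested, by limma at a Benjamini-Hochberg adjusted p below 0.05 with at least a 1.5-fold change (differentially expressed genes, DEGs). Of these, 110 (0.641% of genes) were higher and 33 (0.192%) lower than in its CC. BPA 4.83 µM changed 0 genes, 0% of those tested, by the same test. The count at BPA was also 0 by edgeR and by DESeq2 on the recovered reads. An unadjusted limma p under 0.05 was found for 3466 genes at TBBPA, 20.2% of those tested, and for 513 genes at BPA, 2.99%. The share at BPA lay below the 5% that unchanged genes would give. No gene was called at both exposures, since BPA had no calls. At the lower concentrations, 4 genes were called at TBBPA 0.000292 µM and 0 at each of the others in both series.

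The measured size of the changes differed less than their number, but it includes the error of each estimate. The median absolute log2 change over all genes was 0.14 at TBBPA 2.92 µM and 0.13 at BPA 4.83 µM. The median standard error was 0.134 at TBBPA and 0.216 at BPA. At BPA the median change was thus smaller than the standard error, and the 2 medians do not show true changes of like size. In the TBBPA series it lay between 0.083 and 0.097 at the 4 lower concentrations, all below the value at 2.92 µM. In the BPA series it was 0.12 at 0.00483 µM, 0.11 at 0.0483 µM, 0.14 at 0.483 µM, 0.13 at 4.83 µM and 0.34 at 48.3 µM, so that 4.83 µM did not stand above the concentration below it. Without regard to a test, 599 genes at TBBPA and 774 at BPA lay at least 1.5-fold from the CC, 3.49% and 4.51% of those tested, which puts more genes past that fold where fewer passed the test. Taken singly, the TBBPA 2.92 µM libraries had between 6.95% and 8.66% of genes at least 1.5-fold from the mean of their controls, and each TBBPA control had between 4.35% and 6.97% at that distance from the mean of the other 2 controls. BPA 4.83 µM replicates 1 and 2 had 7.42% and 8.90% of genes at that distance, and the BPA controls had between 10.6% and 22.9% among themselves.

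**Figure D1:**
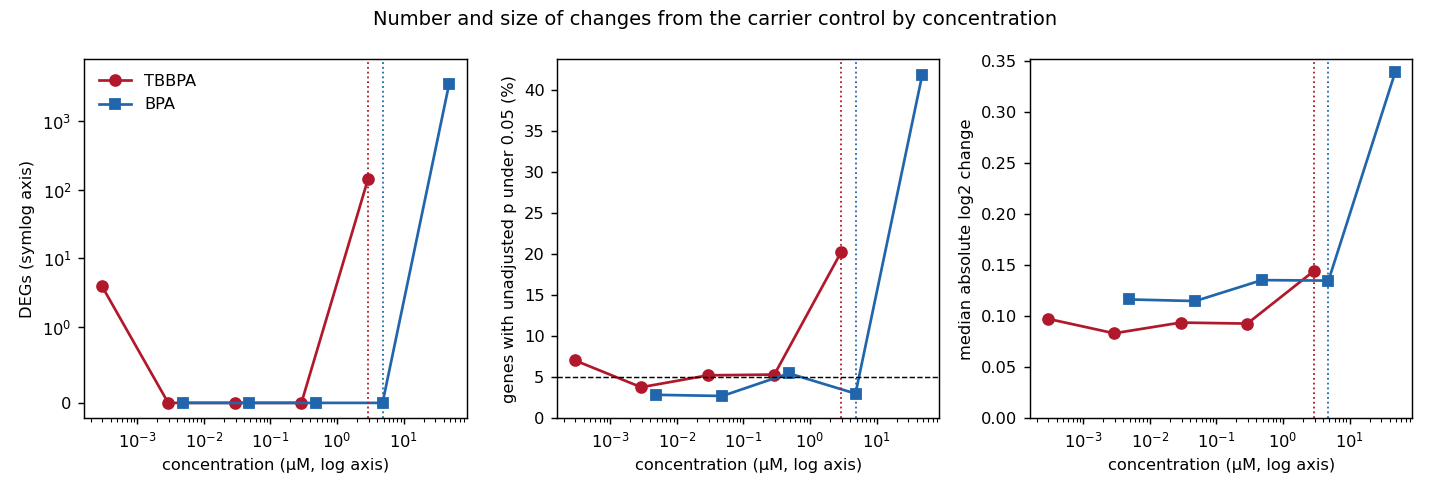
Number of DEGs (symlog axis), percent of genes with an unadjusted limma p under 0.05 (the dashed line marks 5%) and median absolute log2 change from the CC, against concentration (log axis) for TBBPA (circles) and BPA (squares), with dotted lines at 2.92 and 4.83 µM. At these 2 concentrations TBBPA had 143 DEGs and BPA 0, while the median changes lay at 0.14 and 0.13. These medians include the error of the estimates, which was larger at BPA.

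Divided by the concentration, which takes the response as proportional to it, the counts came to 49.0 DEGs per µM at TBBPA 2.92 µM and 0 per µM at BPA 4.83 µM. The neighboring concentrations do not follow such a line. TBBPA 0.292 µM had 0 DEGs, BPA 0.483 µM had 0, and BPA 48.3 µM had 3525, which is 73.0 per µM. With 1 TBBPA library left out in turn, so that both exposures rested on 2 libraries, the count per µM at TBBPA was 20.5, 59.9 and 20.5. These fits match the number of libraries but not the spread, which stayed wider in the BPA series. With 1 fit over both chemicals, which shares the spread, the undivided counts were 19 at TBBPA and 0 at BPA. The median absolute log2 change came to 0.049 per µM at TBBPA 2.92 µM and 0.028 per µM at BPA 4.83 µM. Both values include the error of the estimates, which was larger at BPA. The same division gave 24.1 per µM at BPA 0.00483 µM and 0.0070 per µM at BPA 48.3 µM, so that it grew smaller with concentration while the change itself did not.

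The list counts that follow are to be read against all genes tested. At TBBPA 2.92 µM 0.641% of these were called higher and 0.192% lower, and 8315 of 17157 changes were above 0. At BPA 4.83 µM 0% were called and 8474 changes were above 0. The genes that TBBPA raised included those of red cells. Globin genes, which code for the chains of hemoglobin, had 6 of their 8 tested members called higher, none lower, and a median log2 change of 1.01 at TBBPA 2.92 µM. With BPA 4.83 µM none was called, none had a change above 0, and the median was −0.20. The summed globin level was 804 to 816 in replicates 1 and 2, within the 786 to 1603 of the BPA CC. Replicate 3 had a median of 0.90, and at BPA 48.3 µM 8 of 8 were called higher, with a median of 2.05. The β-globin gene hbbe1.3 had 470, 257 and 524 normalized counts at TBBPA 2.92 µM, against 251, 53.1 and 104 in its CC. All exposed libraries lay above all controls, although the control of replicate 1 was close to the exposed library of replicate 2. In the BPA series hbbe1.3 had 52.0 and 52.2 at 4.83 µM, and 170 in replicate 3, against 99.4, 61.0 and 145 in the CC, so that replicates 1 and 2 lay below every control and replicate 3 above. Its log2 change was 1.83 ± 0.33 at TBBPA (SE, adjusted p = 0.0071) and −0.63 ± 0.37 at BPA (SE, unadjusted p = 0.11 by limma). The α-globin gene hbae1.3 had a log2 change of 1.88 at TBBPA (adjusted p = 0.0092) and −0.02 at BPA, and hbae1.2 had 1.43 (adjusted p = 0.035) and −0.16. Globin copies are close in sequence, and the handling of reads that match more than 1 copy is not given in the sources used here. The counts of single copies may miss or misplace such reads.

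Other red cell genes moved less as a group. Of 20 such genes tested, 1 was called higher at TBBPA and the median log2 change was 0.12, against −0.19 at BPA. The gene called was slc4a1a, which codes for the anion exchanger of the red cell membrane. It had 133, 130.2 and 188 normalized counts at TBBPA 2.92 µM, against 68.9, 53.1 and 56.2 in the CC, without overlap. BPA 4.83 µM libraries had 23.7 and 13 of it, and 33.4 in replicate 3, against 28.9, 18.3 and 38.0 in the CC. The log2 change was 1.32 ± 0.28 at TBBPA (SE, adjusted p = 0.014) and −0.36 ± 0.38 at BPA.

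The gene with the largest change among the 143 was irg1l, an immune-responsive gene of macrophages whose mammalian counterpart makes itaconate. It had 105, 154 and 344 normalized counts at TBBPA 2.92 µM, against 32.1, 32.3 and 40.6 in the CC. In the BPA series it had 11 and 9.0 at 4.83 µM, and 19.5 in replicate 3, against 6.8, 8.5 and 17.1 in the CC, where the groups overlapped. The log2 change was 2.32 ± 0.43 (SE, adjusted p = 0.0082) at TBBPA and 0.40 ± 0.44 at BPA. Of 24 genes of neutrophils and macrophages, 3 were called higher at TBBPA, with a median log2 change of 0.49, and none at BPA, with a median of 0.14. The summed level of the list was 2578 to 3384 at TBBPA 2.92 µM against 2046 to 2434 in its CC, and 1259 to 1321 at BPA 4.83 µM against 1076 to 1461 in its CC. The part of immune cell number in these changes was not tested.

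The other called members of that list were MMP9, a protease that cuts extracellular matrix, and socs3b, a feedback inhibitor of cytokine signaling. MMP9 had 99.4, 53.4 and 110 normalized counts at TBBPA 2.92 µM, against 30.9, 24.7 and 28.1 in the CC. In the BPA series the counts were 23.7 and 9.0 at 4.83 µM, and 22.3 in replicate 3, against 15.4, 13.4 and 22.1, so that the 2 libraries lay on either side of the controls. The log2 change of MMP9 was 1.56 ± 0.34 at TBBPA (SE, adjusted p = 0.018) and −0.06 ± 0.37 at BPA, and that of socs3b was 0.59 ± 0.14 (adjusted p = 0.025) and −0.01 ± 0.24. The TBBPA call was lost in 8 of 17 alternatives for MMP9 and in 10 of 18 for socs3b. Beside them, noxo1a, which codes for an organizer of an NADPH oxidase, had 34.7, 32.0 and 75.4 normalized counts at TBBPA 2.92 µM against 8.3, 14.2 and 11.4 in the CC. It had 12.8 and 9.0 at BPA 4.83 µM, and 19.5 in replicate 3, against 7.7, 8.5 and 8.8, which places all 3 above the controls. The log2 change of noxo1a was 1.89 ± 0.37 at TBBPA (adjusted p = 0.0096) and 0.49 ± 0.41 at BPA.

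Complement genes, whose products are plasma proteins made largely in the liver, had 3 of 20 tested members called higher at TBBPA, with 18 of 20 changes above 0 and a median of 0.54. At BPA none was called, 15 of 20 were above 0 and the median was 0.20. The share of all genes tested that was called higher at TBBPA was 0.641%. Component c4b had 190.3, 57.6 and 100.2 normalized counts at TBBPA 2.92 µM, against 44.0, 38.9 and 20.8 in the CC. At BPA 4.83 µM it had 11 and 13, and 16.7 in replicate 3, against 7.7, 7.3 and 8.4 in the CC, again without overlap though at low counts. Its log2 change was 1.62 ± 0.37 at TBBPA (SE, adjusted p = 0.022) and 0.74 ± 0.42 at BPA (unadjusted p = 0.097 by limma), and the difference of 0.88 had a 95% interval from −0.36 to 2.11. For factor B (cfb) and the pore-forming component c9 the log2 changes were 1.2 and 0.91 at TBBPA (adjusted p = 0.039 and 0.047) and 0.20 and −0.004 at BPA. The exposed and control libraries of c9 overlapped at TBBPA. The TBBPA call was lost in 9 of 17 alternatives for c4b, 10 of 17 for cfb and 10 of 18 for c9.

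Liver markers had 1 of 37 tested members called higher at TBBPA, with a median log2 change of 0.51, and 0 at BPA, with a median of 0.11. Of all genes tested, 0.641% were called higher at TBBPA. The called gene was tfa, which codes for the iron carrier transferrin. It had 5452, 3173 and 6857 normalized counts at TBBPA 2.92 µM, against 3048, 1986 and 1402 in the CC, and its log2 change was 1.27 ± 0.31 (SE, adjusted p = 0.033). The BPA 4.83 µM libraries had 558 and 874, and 1473 in replicate 3, against 701, 710.1 and 732 in the CC, a change of 0.12 ± 0.57. The TBBPA call of tfa was lost in 9 of 18 alternatives. The summed level of the liver list overlapped between groups, at 58577 to 76539 with TBBPA 2.92 µM against 42432 to 69862 in its CC, and its part in the complement and tfa changes was not tested. Exocrine pancreas markers had medians of 0.53 at TBBPA and 0.33 at BPA with 0 of 21 called at either, and their summed level spread from 3290 to 12058 within TBBPA 2.92 µM alone.

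**Figure D2:**
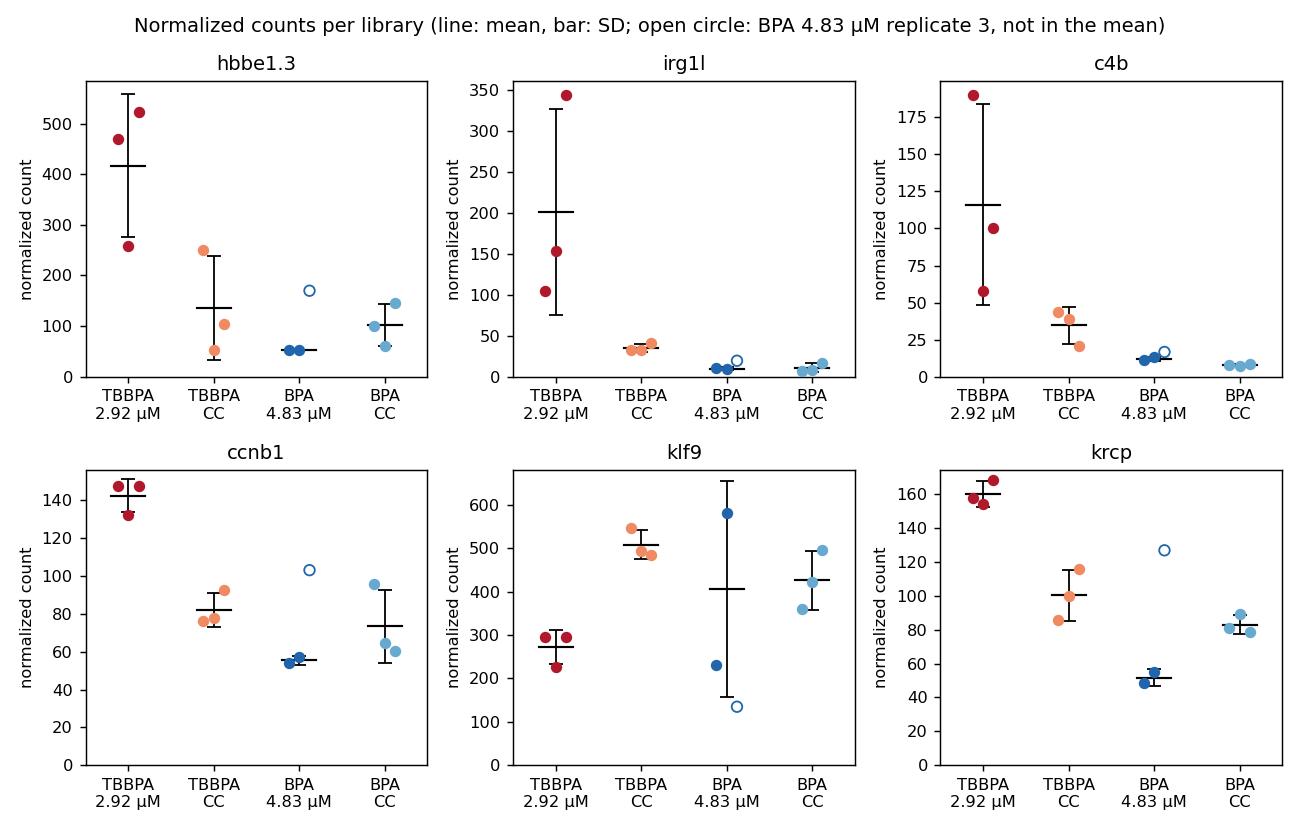
Normalized counts of 6 genes in each library of TBBPA 2.92 µM, TBBPA CC, BPA 4.83 µM and BPA CC, with the mean (line) and SD (bar); the open circle is BPA 4.83 µM replicate 3, which is in neither. In the TBBPA series the exposed libraries lie clear of the controls for all 6 genes, with hbbe1.3 the closest (257 against 251), while at BPA 4.83 µM the klf9 counts of 231 and 582 lie on either side of the controls.

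Genes of DNA replication and cell division nearly all had changes above 0 at TBBPA, most of them small. Of 55 tested, 4 were called higher and none lower, 54 had a log2 change above 0, against 8315 of all 17157 genes, and the median was 0.41. With BPA 4.83 µM none was called, 15 of 55 were above 0 and the median was −0.09. Cyclin B1 (ccnb1), which drives entry into mitosis, had 147, 132 and 148 normalized counts at TBBPA 2.92 µM, against 76.1, 77.8 and 92.6 in the CC. In the BPA series ccnb1 had 53.8 and 57.2 at 4.83 µM, and 103 in replicate 3, against 95.5, 64.7 and 60.2 in the CC, with replicates 1 and 2 below the controls and replicate 3 above them. The log2 change was 0.79 ± 0.14 at TBBPA (SE, adjusted p = 0.0057) and −0.35 ± 0.25 at BPA, and the difference of 1.14 had a 95% interval from 0.57 to 1.71 with an adjusted p of 0.18. The mitotic kinase gene aurkb had log2 changes of 0.69 at TBBPA (adjusted p = 0.022) and 0.06 at BPA, and the spindle checkpoint gene MAD2L1 had 0.60 (adjusted p = 0.039, lost in 14 of 17 alternatives) and −0.37.

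Of 34 genes of the integrated stress and unfolded protein responses, which slow translation and raise chaperones when proteins misfold, 3 were called higher at TBBPA and none at BPA, with medians of 0.12 and 0.0005. The transcription factor gene atf3 had 197, 115 and 166 normalized counts at TBBPA 2.92 µM, against 95.1, 90.1 and 80.1 in the CC. BPA 4.83 µM gave 42.0 and 60.2, and 51.5 in replicate 3, against 37.6, 37.8 and 46.8. The log2 change of atf3 was 0.81 ± 0.14 at TBBPA (SE, adjusted p = 0.0057) and 0.35 ± 0.18 at BPA (unadjusted p = 0.075 by limma). The chaperone gene hyou1 and the serine synthesis gene psat1 had 0.60 and 0.59 at TBBPA (adjusted p = 0.0071 and 0.0042) and 0.14 and 0.08 at BPA. Heat shock genes had 0 of 28 called at either exposure. Among them hsp70l, an inducible chaperone, had 197, 85.4 and 59.3 normalized counts at TBBPA 2.92 µM against 73.7, 76.8 and 69.7 in the CC, so that 1 library was high and 1 lay below the controls.

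Lists of enzymes that handle foreign compounds and oxidants had at most 1 called member each at TBBPA, where 0.833% of all genes tested were called, and 0 at BPA. Of 39 genes of oxidant detoxification, 1 was called higher at TBBPA, the glutathione peroxidase gene gpx1b (log2 change 0.66 ± 0.18, SE, adjusted p = 0.048), and 0 at BPA, with medians of 0.15 and −0.03. In that list 30 of 39 changes were above 0 and 17 had an unadjusted limma p under 0.05 at TBBPA, against 17 above 0 and 0 under that p at BPA. Over all genes tested, 20.2% had such a p at TBBPA and 2.99% at BPA. Of 38 phase 1 enzymes, 1 was called higher at TBBPA, the cytochrome P450 gene cyp2k18, and 0 at BPA, with medians of 0.0010 and 0.095. The cyp2k18 counts were 126, 86.4 and 91.6 at TBBPA 2.92 µM against 47.5, 38.9 and 59.3 in the CC, a log2 change of 1.04 ± 0.20 (adjusted p = 0.0088), and 42.9 and 40.1 at BPA 4.83 µM, with 30.6 in replicate 3, against 45.3, 40.3 and 26.7. The log2 change of cyp2k18 at BPA was 0.10 ± 0.35. Of 35 phase 2 enzymes none was called at either, with medians of 0.17 and −0.04 and with 28 changes above 0 at TBBPA and 16 at BPA. The aryl hydrocarbon receptor target cyp1a had log2 changes of 0.37 ± 0.18 at TBBPA (adjusted p = 0.26) and 0.17 ± 0.46 at BPA.

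Among the genes that TBBPA lowered was klf9, a transcription factor gene that thyroid hormone and glucocorticoids are known to induce. It had 295, 226 and 295 normalized counts at TBBPA 2.92 µM, against 546, 493 and 484 in the CC. BPA 4.83 µM gave 231 and 582, and 135 in replicate 3, against 360, 422 and 496 in the CC, so that replicates 1 and 2 lay on opposite sides. The log2 change was −0.90 ± 0.11 at TBBPA (SE, adjusted p = 0.00070) and −0.09 ± 0.33 at BPA, and the difference of −0.82 had a 95% interval from −1.57 to −0.07 with an adjusted p of 0.43. It was the called gene of 12 tested thyroid axis genes, whose medians were −0.17 at TBBPA and −0.11 at BPA. The glucocorticoid target fkbp5 showed a like spread at BPA, with 832 and 2285, and 1573 in replicate 3, against 1470.2, 2090.1 and 1650.0 in the CC. At TBBPA 2.92 µM fkbp5 had 1034, 775 and 1045 against 1756, 1031 and 1235, a log2 change of −0.47 ± 0.17 (adjusted p = 0.13).

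Circadian clock genes had 37 of 39 log2 changes at TBBPA at or below 0, with a median of −0.26 and 1 called lower. At BPA the median was 0.002 with no call. Of all genes tested, 0.192% were called lower at TBBPA, and 8315 of 17157 changes were above 0. The called gene was nfil3-6, which codes for a repressor that opposes clock output factors. It had 781, 777 and 769 normalized counts at TBBPA 2.92 µM, against 1303, 1541 and 1011 in the CC, and at BPA 4.83 µM it had 752 and 692, and 237 in replicate 3, against 864, 685 and 829.8. The log2 change was −0.71 ± 0.10 at TBBPA (SE, adjusted p = 0.0011) and −0.10 ± 0.18 at BPA. Glucocorticoid response genes had medians of −0.15 and 0.02, with 1 of 18 called lower at TBBPA, which was klf9 again.

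Lens genes had 46 of 47 log2 changes at TBBPA at or below 0, with 2 called lower and a median of −0.32, whereas at BPA 39 of 47 were above 0, none was called and the median was 0.11. The called genes were the crystallin gene cryaa and MIP (ENSDARG00000037285), which codes for the water channel of lens fibers. Both had a log2 change of −0.59 at TBBPA, with adjusted p of 0.034 and 0.022, and −0.12 and −0.01 at BPA. The TBBPA call was lost in 12 of 18 alternatives for cryaa (adjusted p up to 0.39) and in 13 of 18 for MIP (up to 0.45). Their exposed and control libraries overlapped at TBBPA, as for MIP with 244, 450.3 and 281 normalized counts against 389, 573 and 470.1, and the fall showed within same-numbered pairs. The summed level of the lens list was 87214 to 145405 at TBBPA 2.92 µM against 119680 to 172539 in its CC and varied from 91845 to 320582 among the BPA controls. Of 45 photoreceptor genes, guca1d, an activator of guanylate cyclase in the outer segment, was called lower at TBBPA with a log2 change of −0.96 ± 0.19 (adjusted p = 0.010) and had 0.08 ± 0.34 at BPA. The photoreceptor medians were −0.15 at both exposures.

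Several of the largest falls at TBBPA were in genes of low counts. The membrane calcium channel subunit gene CACNG4 had 12.2, 12.8 and 16.2 normalized counts at TBBPA 2.92 µM against 28.5, 26.6 and 26.0 in the CC, with a log2 change of −0.94 ± 0.20 (SE, adjusted p = 0.016). At BPA 4.83 µM it had 19.2 and 13, and 0 in replicate 3, against 19.3, 0 and 16.7 in the CC, which shows that its BPA change of 1.39 ± 0.80 rested on a control at 0. The unnamed gene si:ch73-55i23.1 had 11.3, 9.6 and 6.5 at TBBPA against 29.7, 21.8 and 22.9, and 8.2 and 5.0 at BPA 4.83 µM, with 18.1 in replicate 3, against 7.7, 28.1 and 14.6. Its log2 changes, −1.37 ± 0.29 (adjusted p = 0.015) and −1.14 ± 0.48 (unadjusted p = 0.032 by limma), were the only ones of the named falls to lie past 1.5-fold in the same direction at both exposures. ZNF521, a zinc finger gene, ece2b, an endothelin converting enzyme gene, trim35-12, a ubiquitin ligase gene, ENSDARG00000105254 and si:dkey-201c13.2 had log2 changes between −1.09 and −0.94 at TBBPA and between −0.04 and 0.54 at BPA. The TBBPA call was lost in 9 of 17 alternatives for CACNG4, 10 of 17 for si:ch73-55i23.1 and 12 of 17 for ece2b. It was lost in 13 of 17 for ENSDARG00000105254, 15 of 17 for ZNF521, 5 of 17 for trim35-12 and 2 of 18 for si:dkey-201c13.2. Of the remaining large rises, plekhs1, which codes for a protein with a pleckstrin homology domain, had 1.79 ± 0.34 at TBBPA (adjusted p = 0.0088) and 0.50 ± 0.53 at BPA, and si:ch211-153b23.4 had 1.95 ± 0.31 (adjusted p = 0.0033) and −0.12 ± 0.52.

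**Figure D3:**
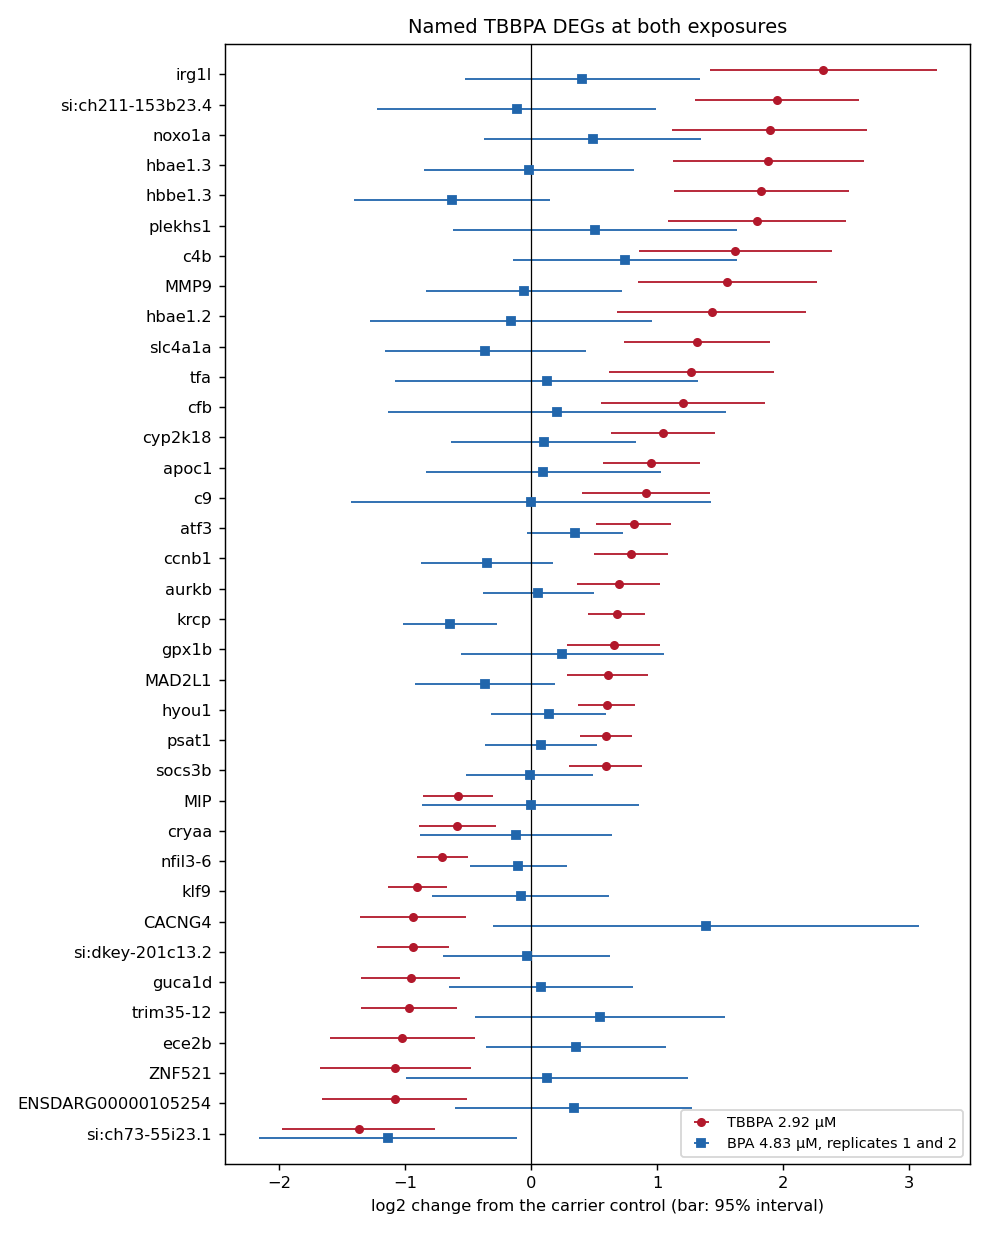
Log2 change from the CC with its 95% interval for the named TBBPA DEGs, at TBBPA 2.92 µM (circles) and BPA 4.83 µM replicates 1 and 2 (squares). The BPA intervals are wider and, apart from krcp and si:ch73-55i23.1, cover 0.

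The remaining lists held few calls. Fatty acid and lipoprotein genes had 1 of 61 called higher at TBBPA, the apolipoprotein gene apoc1 (log2 change 0.95 ± 0.18, SE, adjusted p = 0.0092, against 0.10 ± 0.44 at BPA), with medians of 0.10 and −0.06. Mitochondrially encoded genes had 0 of 13 called, 12 of 13 above 0 at TBBPA with a median of 0.16, and 0 of 13 above 0 at BPA with a median of −0.16. Estrogen response genes had 0 of 6 called, with medians of 0.02 and −0.02. The estrogen targets vtg1, the egg yolk precursor, and cyp19a1b, the brain aromatase, and the receptor gene esr1 lay below the minimum, with the lower of their 2 table means at 0.447, 2.43 and 2.42. GABA genes had 0 of 35 called and medians of −0.17 and 0.04. Immediate early, sterol synthesis, hypoxia and parathyroid hormone genes, and markers of neuron, skeletal muscle and epidermis had no calls at either exposure, with medians between −0.10 and 0.12 at TBBPA and between −0.08 and 0.10 at BPA. The nuclear receptor gene pparg had log2 changes of −0.20 ± 0.32 and −0.37 ± 0.55, the deiodinase gene dio3b −0.18 ± 0.14 and −0.45 ± 0.22, the thyrotropin-releasing hormone gene trh −0.23 ± 0.14 and −0.03 ± 0.24, and the heme oxygenase gene HMOX1 0.49 ± 0.27 and −0.19 ± 0.33, at TBBPA and BPA in that order and with no call.

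By list, 15 of 28 had a called member at TBBPA 2.92 µM and 0 at BPA 4.83 µM. At TBBPA 0.833% of all genes tested were called, and lists of up to 61 tested genes can hold a call at that share. The lists were chosen with earlier results known, so the count of lists is a description only. The median changes had opposite signs in 17 of the 28. They reached 0.3 in either direction in 7 lists at TBBPA and in 1 at BPA, the exocrine pancreas markers. Over all genes tested the medians were −0.01 and −0.003. The lists held 29 of the 143 TBBPA DEGs, and 114 were in none.

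**Figure D4:**
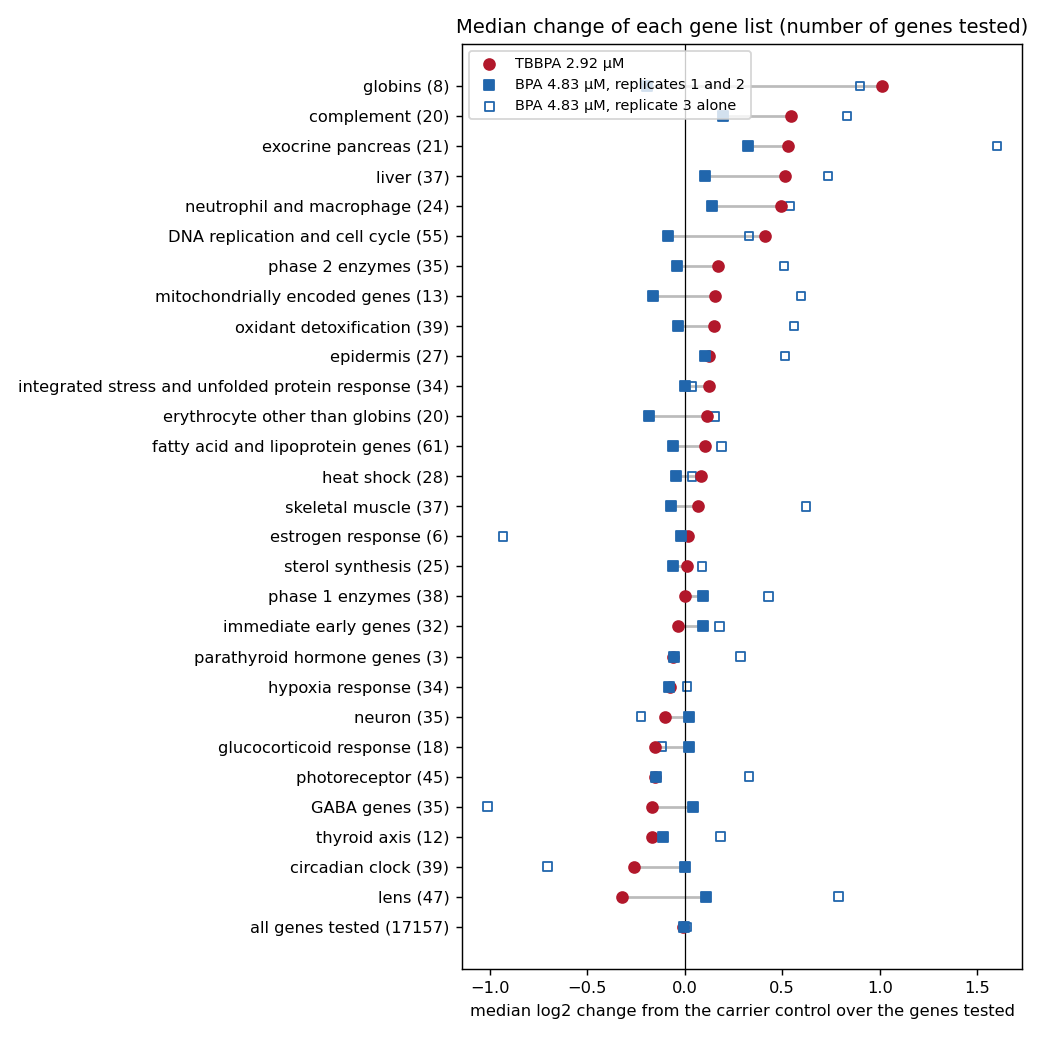
Median log2 change from the CC over the tested genes of each list (number in parentheses), at TBBPA 2.92 µM (circles), BPA 4.83 µM replicates 1 and 2 (filled squares) and BPA 4.83 µM replicate 3 alone (open squares). Globins lie at 1.01 with TBBPA, −0.20 with BPA replicates 1 and 2 and 0.90 with replicate 3. Lens genes lie at −0.32, 0.11 and 0.79 in that order.

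The BPA libraries and their controls had a part in choosing the TBBPA DEGs only through the minimum mean, which each gene had to reach in both series. Beyond that filter, their values for these genes were not used by the TBBPA test. The 110 genes higher at TBBPA had a median log2 change of 0.81 there, by which they were chosen, and of 0.10 at BPA 4.83 µM, with 65 above 0 and 45 not. The 33 genes lower at TBBPA had a median of −0.77 there and 0.08 at BPA, with 17 above 0. At BPA 16 of the 143, or 11.2%, lay at least 1.5-fold from the CC, against 4.51% of all genes, and 5, or 3.5%, had an unadjusted p under 0.05, against 2.99%. The genes chosen at TBBPA thus passed the BPA test about as often as the rest, while a larger share of them lay past 1.5-fold. Their median BPA standard error was 0.329, against 0.216 over all genes, so the BPA test was less able to call them. Replicate 3 at BPA 4.83 µM had medians of 0.48 for the 110 and −1.19 for the 33, against 0.05 and 0.25 in replicate 1 and 0.05 and 0.04 in replicate 2.

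At the higher BPA concentration the picture was another. At BPA 48.3 µM, 52 of the 110 were called higher and 3 lower, and 17 of the 33 were called lower and 0 higher. These 72 genes are 50.3% of the TBBPA DEGs and 2.04% of the BPA 48.3 µM DEGs, and 20.5% of all genes were called at BPA 48.3 µM. The medians there were 0.63 and −0.86, at a concentration 10-fold above 4.83 µM. The BPA 48.3 µM libraries counted toward the minimum mean that all tested genes had to reach, so a rise there could help a gene to be tested. As a case, c4b had a mean of 7.80 in the BPA CC and a log2 change of 5.82 at BPA 48.3 µM. The counts of calls at BPA 48.3 µM are therefore a description only.

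**Figure D5:**
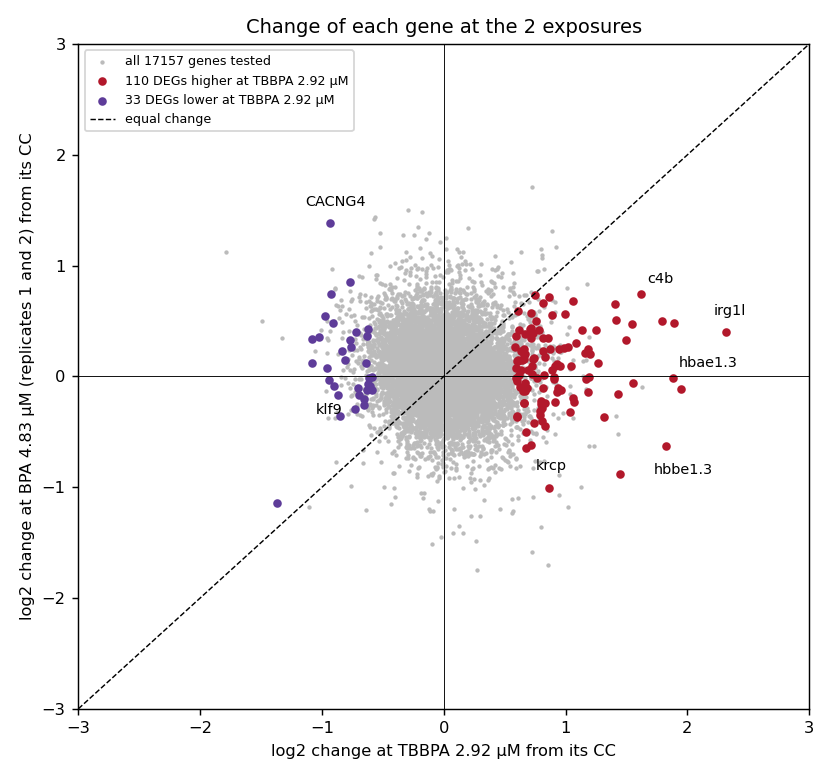
Log2 change of each of the 17157 genes at TBBPA 2.92 µM (x axis) and at BPA 4.83 µM, replicates 1 and 2 (y axis), with the 110 genes higher and the 33 lower at TBBPA in color and a dashed line of equal change. The colored genes, chosen on the x axis, have medians of 0.10 and 0.08 on the y axis.

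Whether the 2 changes differed was tested directly, for 1 pair of compounds, as the change at TBBPA 2.92 µM less the change at BPA 4.83 µM, which compares the exposures as given and not at equal concentration. Of 17157 genes, 1 was called, 0.00583%, and 1794, or 10.5%, had an unadjusted p under 0.05. Among the TBBPA DEGs 76 of 143 had an unadjusted p under 0.05 for the difference, a description only, since the TBBPA change that chose them is part of it. The BPA 95% interval held 0 for 138 of the 143 and left out the TBBPA value for 89. The 89 are also a description only, since the TBBPA values had chosen the genes and were taken without their own error. The median half-width of the BPA interval was 0.70 on the log2 scale, close to the median TBBPA rise of 0.81. For the other 54 genes a BPA change of the TBBPA size was not excluded. For hbbe1.3 the difference was 2.46 with a 95% interval from 1.3 to 3.61 and an adjusted p of 0.17, and for irg1l it was 1.91, from 0.55 to 3.27, with an adjusted p of 0.32.

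The gene called was krcp (ENSDARG00000040224), which codes for a protein with kelch repeats. It had 157, 154 and 168 normalized counts at TBBPA 2.92 µM, against 85.6, 99.6 and 115 in the CC. At BPA 4.83 µM it had 48.4 and 55.2, against 81.0, 89.1 and 78.6 in the CC. The TBBPA libraries lay above their controls and BPA replicates 1 and 2 below theirs, without overlap in either. The log2 change was 0.68 ± 0.11 at TBBPA (SE, adjusted p = 0.0033) and −0.65 ± 0.18 at BPA (unadjusted p = 0.0019, adjusted p = 1.00 by limma), a difference of 1.33 with a 95% interval from 0.94 to 1.71 and an adjusted p of 0.0027. BPA replicate 3 had 127, above its controls, and with it in the fit the difference was 0.92 with an adjusted p of 0.89. At BPA 48.3 µM the log2 change of krcp was 0.24 (adjusted p = 0.25).

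To bring the exposures to the same concentration, the BPA change was also interpolated to 2.92 µM on a log scale between 0.483 and 4.83 µM, which gave 2 calls. They were krcp, with a difference of 1.17 (adjusted p = 0.0070), and COX5A, a subunit gene of cytochrome c oxidase, with 0.65 (adjusted p = 0.046). COX5A was named after its values were seen, and its difference at the given concentrations was 0.67 with a 95% interval from 0.42 to 0.92 and an adjusted p of 0.075. With BPA replicate 3 in the fit, the difference of COX5A was 0.29 and its adjusted p 0.90.

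The number of TBBPA DEGs depended on the libraries and the fit. Without the replicate block it was 64, and with 1 fit over both chemicals, which lends TBBPA the wider spread of the BPA libraries, 19. Leaving out single libraries gave 60, 175 and 60 DEGs without TBBPA 2.92 µM replicates 1, 2 and 3, and 202, 63 and 56 without CC replicates 1, 2 and 3, while leaving out both libraries of a number gave 43, 102 and 19. The count at BPA 4.83 µM was 0 under every alternative run, including the fit with replicate 3, where 507 genes had an unadjusted p under 0.05.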

How the data were processed

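The authors made TruSeq stranded mRNA libraries, used cutadapt for trimming and STAR for alignment to GRCz11 and for the counts per gene. The authors deposited, for each chemical, a signal that is never negative: gene counts divided by the DESeq2 size factor of the library. The strand setting of the counting is not given in the sources used here. Whole reads were recovered for 100% of the values within 0.02 of a whole number, and their sum is the depth. For BPA 4.83 µM replicate 2 1 read was worth nearly 1 unit, so that rounding could not be distinguished. Every column of per-sample values was mapped to a sample (0 left over). The tables were normalized separately, so levels were not compared between chemicals.

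Gene names came from a reference table and the paper's supplement (names for 23660 of the 25531 genes in both tables). Members, lists and tests were chosen with earlier results of these data known.

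Changes were tested with limma 3.58.1 (R 4.3.3; lmFit, eBayes with trend) on log2(value + 1), a scale that understates changes of low genes, over 18 TBBPA libraries and 17 BPA libraries (without 4.83 µM replicate 3), blocked by replicate number as the authors' DESeq2 model was. The difference was tested over all 35 libraries. Benjamini-Hochberg adjustment covered 17157 genes. The fits were also run on simulated data without differences between clutches, and the recovery of changes there is not reported here. edgeR 4.0.16 on the recovered reads called 166 genes at TBBPA and 0 at BPA, and DESeq2 1.42.0 called 91 and 0. Python 3.11.15 with pandas 2.3.3 and matplotlib 3.10.9 made the summaries.

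The study repeated the exposure separately with other clutches for each replicate, so numbers were taken to pair libraries. Deviations of same-numbered exposed and control libraries from their group means correlated over genes at 0.181, 0.101 and 0.222 for TBBPA and at 0.090 and 0.167 for BPA. With 2 exposed BPA libraries the deviations mirror each other, so these BPA values are not separate evidence, and BPA replicate 1 correlated more with control 3 (0.136). P-values measure the spread between these pools.

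Named genes were the up to 8 largest rises and falls among the DEGs of each exposure that went the same way in every pair, genes called at both exposures, up to 6 in each direction for the difference, up to 3 called members of each of 28 lists (or the member of lowest p), and a fixed set of markers of exposure, of which gstp1.1 lay below the minimum and hbbe1.1 was not matched. 1 gene that this rule names is not reported here. Alternatives covered the pseudocount, filter, block, libraries fitted, scaling, tool, fold and each library left out.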

Additional observations from a re-analysis of the deposited data

Results flagged for a closer look

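The change of krcp differed between the exposures, by 1.33 on the log2 scale (TBBPA 2.92 µM less BPA 4.83 µM, limma adjusted p = 0.0027), with 3 of 3 pairs higher at TBBPA and 2 of 2 lower at BPA. The call was made in 20 of the 25 fits run, with the difference between 0.92 and 1.45, and was absent with BPA replicate 3, with only the libraries of the comparison and without each replicate number.

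BPA 4.83 µM replicate 3, a library outside the comparisons, had 3730 genes at least 2-fold from the mean of its controls, 493 higher and 3237 lower. Each BPA control had between 408 and 1250 genes at that distance from the mean of the other 2. Its list medians included 1.6 for exocrine pancreas markers, −1.01 for GABA genes, −0.93 for estrogen response genes and 0.90 for globins. The cause was not tested.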

How the results depend on the processing

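Against 143 TBBPA DEGs, the fit over both chemicals called 19, DESeq2 91, a mean of at least 50 called 77, and a fold change of at least 2 called 35. The fit with no replicate block called 64, and the fit of only the libraries of the comparison called 114. Leaving out single libraries or replicate numbers gave 19 to 202, or 20.5 to 59.9 DEGs per µM with 1 exposed library left out. A mean of at least 50 makes fewer genes eligible, and for the other settings the cause was not tested. The 110 to 33 split of higher and lower calls became 139 to 27 with edgeR. For the difference, counts were 2 with the BPA change interpolated to 2.92 µM, 2 with a mean of at least 50 (krcp and COX5A), 0 with only the libraries of the comparison, 0 with BPA 4.83 µM replicate 3, and 0 to 10 with libraries left out, the 10 without BPA 4.83 µM replicate 1, where 1 library is assumed to vary like the rest. No replicate block left it at 1 gene, and BPA at 0 with 269 genes at an unadjusted p under 0.05. Of the named TBBPA calls, klf9 was lost in 1 of 18 alternatives, nfil3-6 in 2 of 18 and irg1l in 2 of 17. Lost more often were aurkb (11 of 18), hbae1.2 (10 of 17), gpx1b (14 of 17) and ZNF521 (15 of 17). No called direction reversed. Among the changes called neither way, 168 of 2635 changed sign. Precision was limited by the number of pools, with a median half-width of the 95% interval of 0.279 log2 at TBBPA 2.92 µM and 0.457 at BPA 4.83 µM.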
